A study of Homo sapiens with 12 samples.

Results

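TMCO1 and 4 protein-coding genes beside it on chromosome 1, UCK2, ALDH9A1, MGST3 and RXRG, were followed in A549 cells, a line from a human lung adenocarcinoma. They are 5 of the 60617 gene IDs measured. TMCO1 was chosen because its read level was higher in cells with a BTLA shRNA than in control cells, so its values in that comparison are given as a description with no test. The other 4 lie near TMCO1 but are not its nearest protein-coding genes, since FAM78B lies nearer than RXRG. All 5 were chosen with earlier results of these data known. The question was whether the neighbouring genes differed in the same way, and whether TMCO1 also differed between cells sorted on BTLA. BTLA is an immune checkpoint receptor that is best known from lymphocytes.

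RNA-Seq was made from 12 libraries, 3 in each of 4 groups, in 2 separate experiments. In the knockdown experiment, shBTLA cells carried an shRNA against BTLA and shControl cells, labelled WT, were the knockdown control. The labels give the delivery as plasmid transfection, while the study's methods give lentiviral infection with the empty pSIH-H1-Puro vector as control and selection in puromycin and/or neomycin. In the sort, A549 cells were separated by a BTLA surface antibody into BTLAlow and BTLAhigh cells. The study cultured and sequenced the sorted cells, and reports that their BTLA difference remained but was smaller after culture. How long the sequenced cells had been cultured is not clearly stated. The labels and methods name neither the shRNA that was sequenced nor the cultures behind each library, so the p-values measure the spread between libraries, which may be technical. Tests and fold changes were made only between libraries of 1 experiment.

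Depth ranged over 29130357 to 41748767 reads for the 6 knockdown libraries and over 29383169 to 42488067 reads for the 6 sort libraries. Levels are given as RPM, the reads of a gene scaled to a common library total, which do not correct for gene length. A count of 0 allows up to 3 reads, or 0.0706 to 0.103 RPM, counting error only. BTLA had 0 reads in 10 of the 12 libraries and 2 reads each in shControl 3 and BTLAhigh 3, so its reads cannot check the labels. Of 5 epithelial markers, KRT8, KRT18, EPCAM and CDH1 were over 1 RPM in all 12 libraries and KRT19 was under 1 RPM. Their summed level was 12128 to 14714 RPM in shBTLA against 5839 to 9530 RPM in shControl, and 17654 to 20848 RPM in BTLAlow against 12028 to 15330 RPM in BTLAhigh. The part of this difference in the results below was not tested. The 7 lymphocyte markers were under 1 RPM in all libraries, with CD3D, CD3E and MS4A1 at 0, and summed to 0.449 to 0.842 RPM in shBTLA against 0.773 to 1.17 RPM in shControl and to 0.831 to 0.987 RPM in BTLAlow against 0.6003 to 0.936 RPM in BTLAhigh. Of 4 myeloid markers CSF1R and LYZ were under 1 RPM in all libraries, and the sums of the 4 were 4.10 to 4.43 RPM in shBTLA against 3.82 to 5.51 RPM in shControl, and 3.01 to 4.12 RPM in BTLAlow against 5.12 to 5.30 RPM in BTLAhigh. Of 5 fibroblast and endothelial markers 4 were under 1 RPM in all libraries, with DCN at 0, and the sums of the 5 were 0.982 to 1.91 RPM in shBTLA against 2.20 to 3.43 RPM in shControl, and 1.06 to 1.45 RPM in BTLAlow against 1.05 to 1.27 RPM in BTLAhigh. The myeloid sums thus did not overlap in the sort, nor the fibroblast and endothelial sums in the knockdown, and the part of either in the results was not tested. Fewer cells of a type and less RNA per cell cannot be told apart in such bulk libraries.

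TMCO1 encodes a protein of the endoplasmic reticulum membrane. It has been described as a channel that releases calcium from an overfilled store, and as a subunit of the multipass translocon, the assembly around the SEC61 channel that helps proteins with many membrane spans to insert. Its neighbours have unrelated roles. UCK2 phosphorylates uridine and cytidine in pyrimidine salvage, ALDH9A1 oxidises an aldehyde on the way to carnitine, MGST3 is a microsomal glutathione S-transferase of the MAPEG family, and RXRG is the gamma form of the retinoid X receptor.

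On GRCh38, TMCO1 (ENSG00000143183) spans 165724293 to 165827755 of chromosome 1 on the minus strand, and UCK2 (ENSG00000143179) spans 165827614 to 165911618 on the plus strand. Their annotated spans overlap by 142 bases, head to head. ALDH9A1 (ENSG00000143149, 165662216 to 165698863, minus strand) ends 25.4 kb before the TMCO1 span. MGST3 (ENSG00000143198, 165631213 to 165661796, plus strand) lies tail to tail with ALDH9A1 at a distance of 420 bases. RXRG (ENSG00000143171, 165400922 to 165445355, minus strand) lies 186 kb beyond MGST3. The overlap of TMCO1 with UCK2 comes from a long annotated span of TMCO1. RefSeq places the TMCO1 start sites at 165768922 and 165768868, so that the TMCO1 and UCK2 start sites in RefSeq are 58.7 kb apart. In the GENCODE annotation lifted to GRCh37, 1 of 8 TMCO1 transcripts starts inside UCK2 and the others start within 85 bases of each other. The TMCO1 span also holds the antisense gene TMCO1-AS1, which starts 7 bases from the RefSeq TMCO1 start, and AL451074.4. Use of strand in the counting is not given by the sources, and without strand, reads of overlapping genes cannot be told apart in the shared bases.

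The promoters of the 3 genes on which the comparisons turn are shown to set the sequence at the TMCO1 start beside those of its neighbours. All 5 genes have entries among RefSeq promoters (GRCh38.p14), each with 250 bases before and 50 after the start, and TMCO1 has one for each of its 2 start sites. TMCO1 is given for chr1:165768873-165769172 (minus strand), UCK2 for chr1:165827364-165827663 (plus strand) and MGST3 for chr1:165630984-165631283 (plus strand), each 5′ to 3′ in the direction of transcription. Capitals mark matches, on either strand, to the CCAAT box (CCAAT), the GC box (GGGCGG), the core bound by ETS factors (CCGGAAG) or the TATA box (TATAAA).
TMCO1: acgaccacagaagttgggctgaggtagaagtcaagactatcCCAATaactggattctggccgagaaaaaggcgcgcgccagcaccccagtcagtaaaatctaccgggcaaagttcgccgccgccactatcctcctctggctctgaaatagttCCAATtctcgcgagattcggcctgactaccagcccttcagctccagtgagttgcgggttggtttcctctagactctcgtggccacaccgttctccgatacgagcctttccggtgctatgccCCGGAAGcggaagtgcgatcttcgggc
UCK2: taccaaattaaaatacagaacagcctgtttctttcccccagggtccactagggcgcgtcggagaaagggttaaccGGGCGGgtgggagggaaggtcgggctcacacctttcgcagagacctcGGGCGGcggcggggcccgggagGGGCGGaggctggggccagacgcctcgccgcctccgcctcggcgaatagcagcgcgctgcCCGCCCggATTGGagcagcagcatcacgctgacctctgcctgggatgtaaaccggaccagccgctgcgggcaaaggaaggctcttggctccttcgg
MGST3: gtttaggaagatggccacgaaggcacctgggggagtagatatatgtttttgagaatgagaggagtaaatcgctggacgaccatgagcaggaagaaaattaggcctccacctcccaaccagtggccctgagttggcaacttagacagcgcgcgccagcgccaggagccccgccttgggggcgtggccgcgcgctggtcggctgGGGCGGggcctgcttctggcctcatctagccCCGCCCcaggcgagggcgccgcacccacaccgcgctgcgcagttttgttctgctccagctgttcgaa

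The TMCO1 promoter shown held the CCAAT box at 2 places and the ETS core at 1, and no GC box. That of the other TMCO1 start site, 54 bases further along, held the CCAAT box at 1 place and the ETS core at 1, with a GC content of 58%. The UCK2 promoter held the GC box at 4 places and the CCAAT box at 1, and the MGST3 promoter held the GC box at 2. No matches overlapped. Among 35116 RefSeq promoters of the same length, 34.6% held the CCAAT box, 44.95% the GC box, 10.3% the ETS core and 11.5% the TATA box. The TATA box was in none of the 3 windows. The GC content was 56.3% for the TMCO1 promoter shown, 66.3% for UCK2 and 62.7% for MGST3. These matches describe the letters only.

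TMCO1 stood about 4-fold higher in shBTLA than in shControl cells. It had 4682, 4318 and 5403 reads in shBTLA 1, 2 and 3, against 940, 782 and 1110 reads in shControl 1, 2 and 3. In RPM these are 123, 121 and 129 in shBTLA (125 ± 4.32, SD, n = 3) and 32.3, 25.3 and 28.6 in shControl (28.7 ± 3.47, SD, n = 3). All 3 shBTLA libraries lay far above all 3 shControl libraries, and the replicates within each group lay close together. The difference was 2.12 on the log2(RPM + 0.1) scale, a ratio of 4.34, and it ranked 37 of 16630 genes tested from the highest. When 1 library at a time was left out it stayed between 2.03 and 2.21. TMCO1-AS1 on the opposite strand had 5, 9 and 15 reads in shBTLA against 12, 1 and 3 reads in shControl, too few to be tested in this comparison, and AL451074.4 had 0 reads in all 12 libraries.

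The neighbouring genes did not show a difference of this size. MGST3, on the far side of ALDH9A1, had 122, 129 and 123 RPM in shBTLA (125 ± 3.46, SD, n = 3) against 96.3, 96.0 and 98.3 RPM in shControl (96.9 ± 1.27, SD, n = 3). The groups did not overlap, with every shBTLA library higher, as for 9.14% of all genes tested. The difference was 0.36 on the log2 scale (SE 0.09, 95% interval 0.15 to 0.57) and did not pass the test (limma, adjusted p = 0.143, and 0.0571 to 0.584 over 13 alternatives).

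UCK2, the gene whose span meets that of TMCO1, lay the other way. It had 105, 103 and 106 RPM in shBTLA (105 ± 1.61, SD, n = 3) against 131, 117 and 126 RPM in shControl (125 ± 6.77, SD, n = 3). Every shBTLA library was below every shControl library, as for 8.77% of all genes tested (17.9% in either direction). The log2 difference was -0.25 (SE 0.10, 95% interval -0.47 to -0.029) and did not pass the test (limma, adjusted p = 0.379). ALDH9A1 had 45.8, 38.0 and 43.8 RPM in shBTLA (42.6 ± 4.04, SD, n = 3) against 60.3, 34.4 and 46.2 RPM in shControl (47.0 ± 13.0, SD, n = 3). Its groups overlapped, since shControl 1 was the highest and shControl 2 the lowest of the 6 libraries. ALDH9A1 differed by -0.11 on the log2 scale (95% interval -0.56 to 0.35, limma adjusted p = 0.883), and it was 0.090 without shControl 1. RXRG had 0 reads in all 12 libraries, so that no difference was detectable at this depth.

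**Figure D1:**
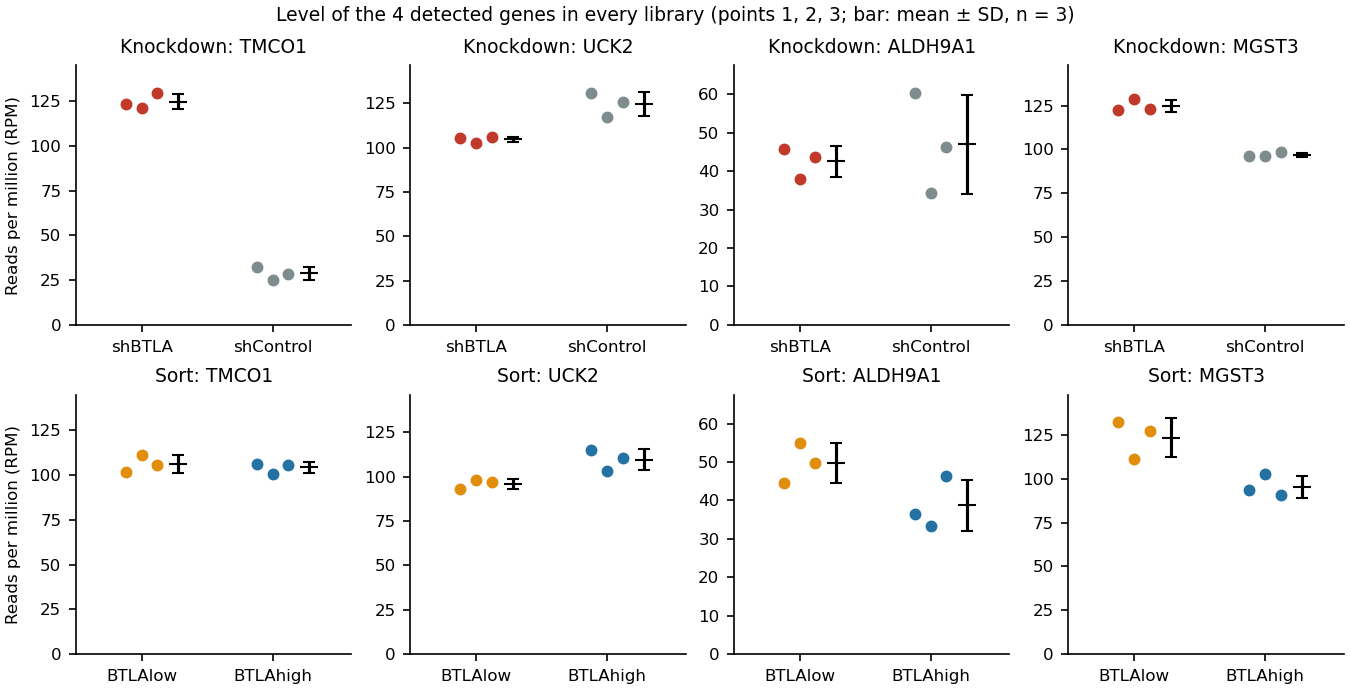
Level of TMCO1, UCK2, ALDH9A1 and MGST3 in every library, in RPM, with each library as a point, in replicate order from left to right, and the mean ± SD of 3 libraries beside them, shBTLA left of shControl and BTLAlow left of BTLAhigh. TMCO1 lies at 121 to 129 RPM in shBTLA against 25.3 to 32.3 RPM in shControl, while in the sort its 6 libraries lie between 101 and 111 RPM.

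Within 1 Mb of the TMCO1 span there were 43 other annotated genes, 8 of them protein-coding, and 26 had 0 reads in all 12 libraries. In the knockdown 5 had enough reads to be tested, among them UCK2, ALDH9A1, MGST3 and FAM78B. Of these, 0 were called higher and 0 lower at an adjusted p under 0.05 by limma, beside 0.782% of all genes tested that were called higher, 0.686% called lower and 1.47% in either direction. The count was 0 with voom as well. At an unadjusted p under 0.05 it was 1 higher and 1 lower, beside 1790 of all 16630 genes tested either way. The median log2 difference of the 5 was 0.11, against -0.024 over all genes, and the highest upper 95% bound among the 5 was 0.89. FAM78B had 11 to 33 reads a library over all 12, and its log2 difference was 0.11 with a 95% interval of -0.67 to 0.89 (limma, adjusted p = 0.933).

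Wider windows gave a like picture. Within 2 Mb of TMCO1, 13 genes were tested and 0 were called by limma or by voom, while 1 lay higher and 1 lower at unadjusted p under 0.05. Within 5 Mb, 68 were tested and 0 were called by limma or by voom, while 5 lay higher and 2 lower at unadjusted p under 0.05, and their median log2 difference was 0.02. Within 10 Mb, 154 were tested and 1 was called higher and 0 lower by limma and voom, or 0.649% against 1.47% of all genes. At unadjusted p under 0.05, 11 lay higher and 4 lower, where 1790 of all 16630 genes tested lay either way. The gene called was the long noncoding RNA LINC01133, whose start lies 5.87 Mb below that of TMCO1, with a log2 difference of 2.64 (limma, adjusted p = 0.0151). This call was lost without shBTLA 1, 2 or 3 in turn (adjusted p = 0.110, 0.109 and 0.0808, limma).

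**Figure D2:**
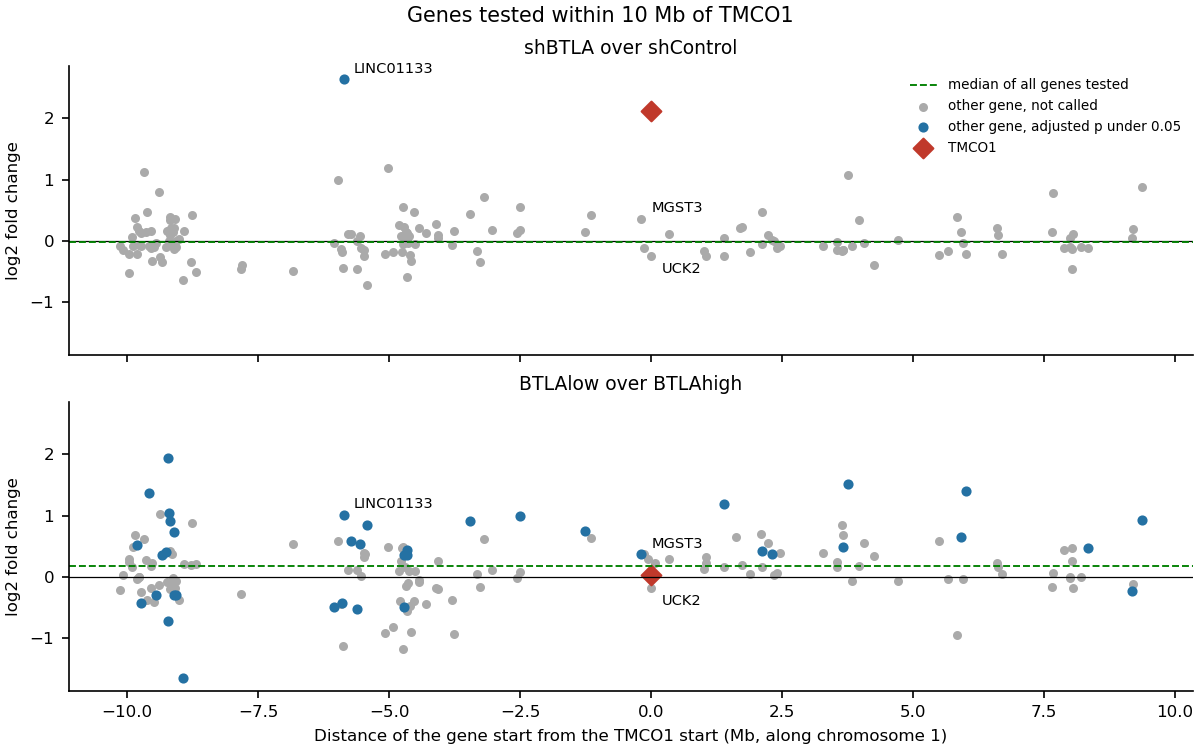
log2 fold change of every gene tested within 10 Mb of TMCO1, against the distance of its start from the TMCO1 start in Mb, for shBTLA over shControl in the upper panel and BTLAlow over BTLAhigh in the lower one, with genes called at an adjusted p under 0.05 marked. In the upper panel TMCO1 at 2.12 and LINC01133 at 2.64 stand above the other genes, and in the lower panel TMCO1 lies at 0.026.

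In the sort, whose libraries did not choose the gene, TMCO1 differed little. It had 2980, 4621 and 3430 reads in BTLAlow 1, 2 and 3, against 3744, 4279 and 3347 reads in BTLAhigh 1, 2 and 3. In RPM these are 101, 111 and 106 in BTLAlow (106 ± 5.02, SD, n = 3) and 106, 101 and 106 in BTLAhigh (104 ± 3.03, SD, n = 3). The groups overlapped. The log2 difference was 0.026 (SE 0.077, 95% interval -0.15 to 0.20) and did not pass the test (limma, adjusted p = 0.828, exact permutation test p = 0.6). The median gene was 0.18 higher in BTLAlow on this scale, and with libraries scaled to the same median over genes the TMCO1 difference was -0.15 (limma, adjusted p = 0.151). TMCO1-AS1 had 13, 1 and 11 reads in BTLAlow against 3, 4 and 11 reads in BTLAhigh, with a log2 difference of 0.29 (SE 0.63, limma adjusted p = 0.760).

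Of the neighbours, MGST3 was higher in BTLAlow cells. It had 132, 111 and 127 RPM in BTLAlow (123 ± 10.96, SD, n = 3) against 93.4, 103 and 90.5 RPM in BTLAhigh (95.5 ± 6.28, SD, n = 3). The groups did not overlap, with every BTLAlow library higher, as for 30.4% of all genes tested. The log2 difference was 0.37 (SE 0.09, 95% interval 0.16 to 0.58, limma adjusted p = 0.0189). The call was lost after scaling to a shared median (log2 difference 0.19, adjusted p = 0.260, limma), on the deposited RPKM (0.116), with a replicate block (0.0903) and without BTLAlow 1, BTLAlow 3 or BTLAhigh 1 (adjusted p = 0.0731, 0.0880 and 0.0886, limma), which is 6 of 13 alternatives. In the knockdown MGST3 had the log2 difference of 0.36 given above, which did not pass the test. Agreement between the experiments was not tested.

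UCK2 had 93.0, 98.3 and 97.1 RPM in BTLAlow (96.1 ± 2.79, SD, n = 3) against 115, 103 and 111 RPM in BTLAhigh (109.6 ± 5.87, SD, n = 3). Every BTLAlow library lay below every BTLAhigh library, as for 11.4% of all genes tested (41.8% in either direction). UCK2 differed by -0.19 on the log2 scale (SE 0.078, 95% interval -0.36 to -0.013) and did not pass the test (limma, adjusted p = 0.107), but scaled to the same median it was -0.36 and passed (limma, adjusted p = 0.00792). ALDH9A1 had 44.5, 55.0 and 49.8 RPM in BTLAlow (49.8 ± 5.28, SD, n = 3) against 36.4, 33.5 and 46.3 RPM in BTLAhigh (38.7 ± 6.72, SD, n = 3). BTLAhigh 3 lay above BTLAlow 1, so the groups overlapped. For ALDH9A1 the log2 difference was 0.37 (SE 0.13, limma adjusted p = 0.0724), and without BTLAhigh 3 it was 0.51 and passed (limma, adjusted p = 0.00610).

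Among the genes within 1 Mb, 7 were tested in the sort. Called higher were 2, MGST3 among them, and 0 were called lower by limma or by voom, beside 19.1% of all genes tested that were called higher and 6.25% called lower. At an unadjusted p under 0.05 there were 3 higher and 1 lower, beside 6557 of all 16911 genes tested either way. With libraries scaled to the same median 1 was called higher and 1, UCK2, lower, beside 2054 and 2238 of all genes. FAM78B had a log2 difference of 0.29 (limma, adjusted p = 0.440) and AL358115.1, which overlaps UCK2, one of 0.23 (limma, adjusted p = 0.774). The median of the 7 was 0.29, against 0.18 over all genes. Within 10 Mb, 28 of 161 genes tested were called higher and 11 lower, or 24.2% against 25.4% of all genes, and 16 higher and 24 lower when scaled to the same median. LINC01133 was among those called higher, with a log2 difference of 1.02 (limma, adjusted p = 0.0366). That call was lost in 8 of 13 alternatives, among them scaling to the same median. Over all genes tested, 75.4% of the calls in the sort were higher, or 47.9% when scaled to the same median.

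The level of TMCO1 relative to a neighbour in the same library does not depend on the library total. TMCO1 minus UCK2 on the log2(RPM + 0.1) scale was 0.23, 0.24 and 0.29 in shBTLA against -2.01, -2.21 and -2.13 in shControl, a difference of 2.37. TMCO1 minus ALDH9A1 was 1.43, 1.67 and 1.56 in shBTLA against -0.90, -0.44 and -0.69 in shControl, a difference of 2.23. TMCO1 minus MGST3 was 0.01, -0.09 and 0.08 in shBTLA against -1.57, -1.92 and -1.78 in shControl, a difference of 1.76. Beside each of the 3 neighbours TMCO1 was thus higher in every shBTLA library than in every shControl library, which follows in part from the choice of TMCO1.

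In the sort these differences within libraries were smaller and differed in direction. TMCO1 minus UCK2 was 0.13, 0.18 and 0.12 in BTLAlow against -0.11, -0.04 and -0.07 in BTLAhigh, a difference of 0.21 with no overlap. TMCO1 minus ALDH9A1 was 1.19, 1.02 and 1.08 in BTLAlow against 1.54, 1.59 and 1.19 in BTLAhigh, a difference of -0.34. TMCO1 minus MGST3 was -0.38, 0.00 and -0.27 in BTLAlow against 0.18, -0.03 and 0.22 in BTLAhigh, a difference of -0.34 with overlap. The two-sided exact permutation test gave p = 0.1 for UCK2 and for ALDH9A1, the smallest that 3 against 3 allows, and p = 0.2 for MGST3, and adjusted over the 3 pairs these were 0.15, 0.15 and 0.2.

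**Figure D3:**
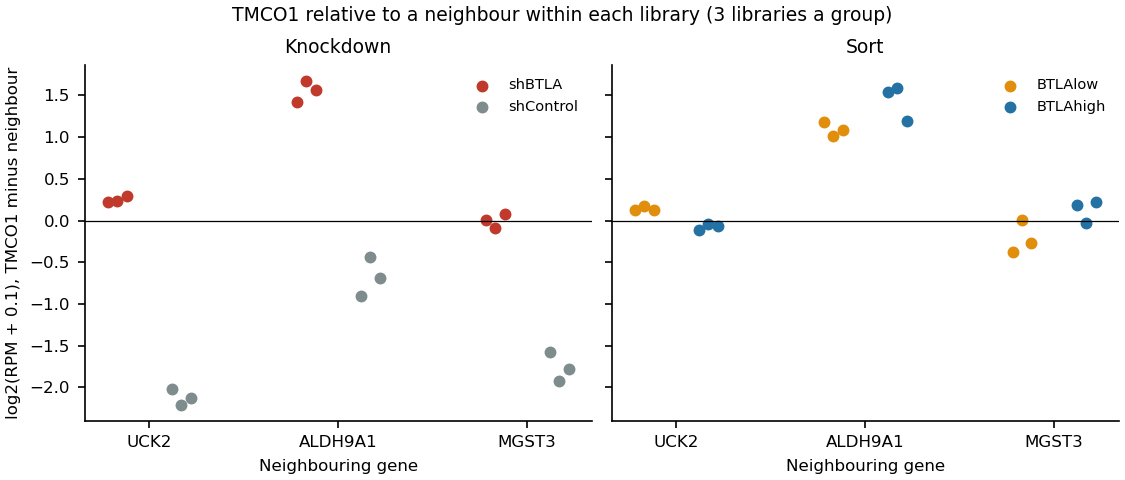
TMCO1 relative to UCK2, ALDH9A1 and MGST3 within each library, as a difference on the log2(RPM + 0.1) scale, with shBTLA left of shControl and BTLAlow left of BTLAhigh and 1 point a library. In the knockdown panel the groups are 1.76 to 2.37 apart, and in the sort panel by -0.34 to 0.21.

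The levels of TMCO1 in the 4 groups are given side by side with no comparison between the experiments. The experiments were made and fitted separately, so that group and experiment cannot be told apart. RPM scales each library to its own total. The range of TMCO1 was 121 to 129 RPM in shBTLA and 25.3 to 32.3 RPM in shControl, by which the gene was chosen. In the sort it was 101 to 111 RPM in BTLAlow and 101 to 106 RPM in BTLAhigh, which overlapped each other.

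None of the tested partners of TMCO1 in the multipass translocon was called in the knockdown. Of 12 genes listed for the complex and the SEC61 channel, 11 were tested, and 0 were called higher and 0 lower by limma or by voom, with 0 at an unadjusted p under 0.05. Their median log2 difference was -0.020, against -0.024 over all genes. Over all genes tested in the knockdown, limma called 0.782% higher and 0.686% lower, and 1790 of 16630 had an unadjusted p under 0.05. CCDC47, a subunit that binds beside the channel, had 111, 89.1 and 97.2 RPM in shBTLA against 132, 75.7 and 101 RPM in shControl, a log2 difference of -0.020 (95% interval -0.47 to 0.43). RAB5IF, also called OPTI, the subunit that pairs with TMCO1, had 47.1, 27.2 and 46.7 RPM in shBTLA against 51.5, 40.7 and 47.5 RPM in shControl, a log2 difference of -0.24 (95% interval -0.75 to 0.26). Both genes overlapped between the groups. SEC61B, a small subunit of the channel, had 206, 225 and 212 RPM in shBTLA against 141, 203 and 183 RPM in shControl, a log2 difference of 0.30 (95% interval -0.024 to 0.63, limma adjusted p = 0.511). Its groups had no overlap, with every shBTLA library higher, as for 9.14% of all genes tested. SEC61G, the other small subunit, had a log2 difference of 0.33 (95% interval -0.13 to 0.79, limma adjusted p = 0.651) with overlap. TMEM147 had a log2 difference of 0.15, SEC61A1 one of 0.073, NCLN one of -0.21 and NOMO1 one of 0.0098. NOMO1 has near-identical copies in NOMO2 and NOMO3, so its reads are uncertain. WDR83OS, the partner of CCDC47, was listed at 0 reads in all 12 libraries, and it overlaps WDR83, so that its level could not be given.

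In the sort, 2 of the 11 translocon genes were lower in BTLAlow and 0 were higher. Of all genes tested, 6.25% were lower and 19.1% higher. By voom and at unadjusted p under 0.05, 0 of the 11 were higher as well. Over all 16911 genes, 6557 had an unadjusted p under 0.05 either way. NCLN, which encodes nicalin, had 177, 164 and 176 RPM in BTLAlow against 244, 254 and 226 RPM in BTLAhigh. Every BTLAlow library was lower, as for 11.4% of all genes tested, and the log2 difference was -0.48 (SE 0.077, limma adjusted p = 0.00233). RAB5IF had 25.6, 31.7 and 27.7 RPM in BTLAlow against 41.5, 36.999 and 37.7 RPM in BTLAhigh, a log2 difference of -0.45 (SE 0.11, limma adjusted p = 0.0151). Its groups did not overlap either, with every BTLAlow library lower. But the call was lost with a replicate block and without BTLAlow 1, BTLAlow 3 or BTLAhigh 1 (adjusted p = 0.0583, 0.0679 and 0.0844 without these libraries, limma). The median of the 11 was -0.055, against 0.18 over all genes.

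**Figure D4:**
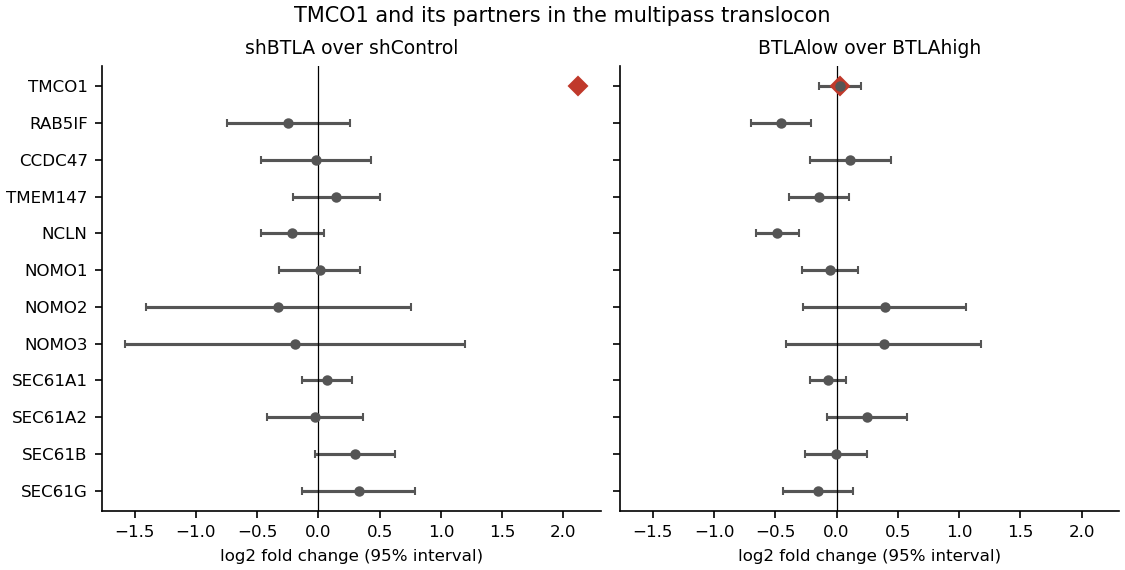
log2 fold change of TMCO1 and its tested translocon partners, for shBTLA over shControl on the left and BTLAlow over BTLAhigh on the right, with 95% intervals from limma except for TMCO1 on the left, which was chosen by that value. On the left TMCO1 stands at 2.12 and the partners from the list have a median of -0.020, and on the right NCLN at -0.48 and RAB5IF at -0.45 are called lower.

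Genes of endoplasmic reticulum calcium stores, the other setting in which TMCO1 is known, were called neither higher nor lower in the knockdown. Of 17 tested, 0 passed by limma or by voom, where 1.47% of all genes tested passed by limma. At unadjusted p under 0.05, 0 lay higher and 2 lower, beside 1790 of all 16630 genes tested either way. The median log2 difference of the 17 was -0.21, against -0.024 over all genes. In the sort 6 of 18 were higher and 1 lower, beside 19.1% and 6.25% of all genes tested. Scaled to the same median the counts were 5 and 2, beside 2054 and 2238 of all 16911 genes. The median of the 18 was 0.26, against 0.18 over all genes. ATP2A1, a calcium pump of the store, had 9.19, 8.80 and 9.54 RPM in BTLAlow against 3.54, 3.70 and 4.45 RPM in BTLAhigh (log2 difference 1.22, limma adjusted p = 0.000555). STIM1, the sensor of an emptied store, had 50.9, 62.4 and 52.6 RPM in BTLAlow against 34.9, 34.3 and 40.5 RPM in BTLAhigh (log2 difference 0.59, limma adjusted p = 0.00501). These groups did not overlap, with BTLAlow higher for both genes, as for 30.4% of all genes tested. SARAF, which limits store-operated entry, differed by 0.59 and ORAI3, a plasma membrane calcium channel, by 0.79 on the log2 scale, and these 4 calls held in all 13 alternatives. The calls of the receptor channel ITPR2 (0.81), of TMBIM6 (0.21) and of the store protein CALR (-0.28) did not hold in all. ITPR2 and CALR were lost without BTLAlow 3 and without BTLAhigh 1, and CALR also with no filter and with a replicate block. Over all alternatives the limma adjusted p reached 0.0584 for ITPR2 and 0.0836 for CALR. TMBIM6 was lost in 10 of 13 alternatives, among them without each library but BTLAhigh 3 (limma adjusted p up to 0.790).

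The pathways of the neighbours were described in the same way. Of 17 pyrimidine salvage and synthesis genes tested beside UCK2, 0 were higher and 1 lower in the knockdown. All genes tested had 0.782% higher and 0.686% lower. By voom and at unadjusted p under 0.05, 0 of the 17 were higher and 1 lower. Over all 16630 genes tested, 1790 had an unadjusted p under 0.05. The median of the 17 was -0.075, against -0.024 over all genes. The gene that fell was CDA, cytidine deaminase, with 9.71, 11.8 and 8.96 RPM in shBTLA against 16.8, 24.7 and 21.9 RPM in shControl (log2 difference -1.04, limma adjusted p = 0.0367). All shBTLA libraries were lower, as for 8.77% of all genes tested. But the call was lost without shBTLA 1, shBTLA 2, shBTLA 3 or shControl 3 (adjusted p = 0.214, 0.123, 0.232 and 0.220, limma) and after scaling to a shared median (adjusted p = 0.0680, limma). In the sort 3 of the 17 were higher and 4 lower, beside 19.1% and 6.25% of all genes tested. Scaled to the same median the counts were 1 and 7, beside 2054 and 2238 of all 16911 genes. The median of the 17 was -0.039, against 0.18 over all genes. CDA had 10.4, 7.16 and 10.6 RPM in BTLAlow against 19.9, 19.5 and 16.9 RPM in BTLAhigh (log2 difference -1.01, limma adjusted p = 0.00261). UPP1, uridine phosphorylase, differed by -0.63 and CTPS1, a CTP synthase, by -0.45, and with CDA these calls held in all alternatives run. The nucleoside transporters SLC29A1 (-0.42) and SLC29A2 (0.53), the CTP synthase CTPS2 (0.41) and the mitochondrial thymidine kinase TK2 (0.38) were called too, with highest adjusted p-values over the alternatives of 0.0827, 0.0531, 0.133 and 0.142 (limma). SLC29A1 was lost without BTLAlow 3, without BTLAhigh 1, on the deposited RPKM and with a replicate block. SLC29A2 was lost with a replicate block only. CTPS2 and TK2 were each lost in 9 of 13 alternatives, among them without each library but BTLAhigh 3.

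Of 8 carnitine synthesis and shuttle genes tested beside ALDH9A1, 0 were called in the knockdown by limma or by voom. By limma, 1.47% of all genes tested were called. At an unadjusted p under 0.05 the count was 0 as well, beside 1790 of all 16630 genes tested. The median of the 8 was -0.12, against -0.024 over all genes. In the sort 3 were higher and 0 lower, by voom too, and at unadjusted p under 0.05. Scaled to the same median the counts were 1 and 0, beside 2054 and 2238 of all 16911 genes. Unscaled, 19.1% of all genes tested were higher and 6.25% lower, and 6557 had an unadjusted p under 0.05. The median of the 8 was 0.45, against 0.18 over all genes. CPT1A, which loads long fatty acids onto carnitine, had 77.8, 88.8 and 82.5 RPM in BTLAlow against 53.5, 54.5 and 63.0 RPM in BTLAhigh (log2 difference 0.54, limma adjusted p = 0.00377). Its groups did not overlap, with every BTLAlow library higher, as for 30.4% of all genes tested. The shuttle enzymes CPT2 (0.44) and CRAT (0.45) reached adjusted p-values of up to 0.129 and 0.0598 over the alternatives (limma). CPT2 was lost in 9 of 13 alternatives, among them without each library but BTLAhigh 3, and CRAT after scaling to a shared median.

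Of the 4 MAPEG relatives tested beside MGST3, 0 were called in the knockdown by limma or by voom. The share of all genes tested called by limma was 1.47%. At unadjusted p under 0.05, 1 of the 4 lay higher and 2 lower, beside 1790 of all 16630 genes tested either way. The median of the 4 was -0.084, against -0.024 over all genes. In the sort 2 of the 4 were higher and 1 lower, against 19.1% and 6.25% of all genes tested. Scaled to the same median the counts were 1 and 1, beside 2054 and 2238 of all 16911 genes. The median of the 4, 0.20, was close to the 0.18 over all genes. MGST1 had 466, 474 and 462 RPM in BTLAlow against 346, 345 and 369 RPM in BTLAhigh (log2 difference 0.40, limma adjusted p = 0.00260), and the call held in all 13 alternatives. All 3 BTLAlow libraries were above all 3 BTLAhigh libraries, as for 30.4% of all genes tested. MGST2 differed by 0.46 (limma adjusted p = 0.0113, lost without BTLAhigh 1 at 0.0560, with a replicate block at 0.0638 and after scaling to a shared median at 0.0887). ALOX5AP, the helper of leukotriene synthesis, differed by -0.87, with adjusted p up to 0.132 over the alternatives (limma). Its call was lost in 7 of 13 alternatives, among them without BTLAlow 2, BTLAlow 3, BTLAhigh 1 or BTLAhigh 2.

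Of the other retinoid receptors and RXR partners, 13 were tested, and 0 were called in the knockdown by limma or by voom. With libraries scaled to the same median, limma called 0 higher and 1 lower. Over all genes, the alternatives that kept every library called 45 to 285 lower. Unscaled, limma called 1.47% of all genes tested. At unadjusted p under 0.05, 1 of the 13 lay higher and 2 lower, beside 1790 of all 16630 genes tested either way. These were THRB (log2 difference 0.46), RARB (-1.03) and VDR (-0.74), with adjusted p-values of 0.432, 0.211 and 0.0883 (limma). Each had no overlap between the groups, as for 17.9% of all genes tested. The median of the 13 was -0.012, against -0.024 over all genes. RXRA had 68.2, 57.8 and 65.7 RPM in shBTLA against 83.6, 58.8 and 69.9 RPM in shControl, and RXRB had 9.76, 4.46 and 8.79 RPM in shBTLA against 12.3, 4.05 and 9.95 RPM in shControl. Both overlapped between the groups. The RXR forms with reads in these cells were thus RXRA and RXRB, with RXRG at 0. In the sort 8 of 13 were higher and 2 lower, where 19.1% of all genes tested were higher and 6.25% lower. Scaled to the same median the counts were 3 and 2, beside 2054 and 2238 of all 16911 genes. The median of the 13 was 0.37, against 0.18 over all genes. THRA, a thyroid hormone receptor, had 83.3, 93.2 and 85.0 RPM in BTLAlow against 42.9, 43.5 and 57.5 RPM in BTLAhigh (log2 difference 0.87, limma adjusted p = 0.00112). VDR, the vitamin D receptor, had 4.25, 3.64 and 4.34 RPM in BTLAlow against 10.9, 10.4 and 10.2 RPM in BTLAhigh (log2 difference -1.34, limma adjusted p = 0.000260). Neither gene overlapped between the groups, THRA being higher and VDR lower in BTLAlow, as for 30.4% and 11.4% of all genes tested. With PPARA (1.17) and THRB (0.93) these calls held in all alternatives run. RARB (0.69), RARG (0.43), PPARD (0.43), PPARG (0.36), NR1H2 (0.37) and RARA (-0.34) were called, but each call was lost without BTLAlow 3 and without BTLAhigh 1, and that of each but RARA also after scaling to a shared median, with highest adjusted p-values over the alternatives of 0.0941 to 0.212 (limma). That of each but RARB was also lost with a replicate block.

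The genes nearest to TMCO1 in profile were sought over all 12 libraries, by the root mean square difference of log2(RPM + 0.1) centred on the mean of each experiment, among 16153 genes tested in both. The nearest were AC074194.2 on chromosome 4 (0.306), CYP2S1 on chromosome 19 (0.320), AC091868.1 on chromosome 5 (0.323), DSCAML1 on chromosome 11 (0.326) and AC008703.1 on chromosome 5 (0.346), against a median of 0.801 over all genes. None of the 5 lies on chromosome 1. The measure favours genes that, like TMCO1, are higher in shBTLA, and it weighs the sort as well. In the sort the log2 differences of the 5 ran from 0.13 for AC074194.2 to 0.66 for CYP2S1. The values of the 5 in both experiments are thus a description with no test. AC074194.2 stayed under 0.6 RPM in all libraries and AC091868.1 under 0.5 RPM, near the limit of counting.

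CYP2S1, a cytochrome P450, had 43.8, 30.9 and 44.7 RPM in shBTLA against 14.5, 11.99 and 12.8 RPM in shControl, a log2 difference of 1.58. DSCAML1, an adhesion molecule of the immunoglobulin family whose span overlaps FXYD2, had 3.29, 5.05 and 5.87 RPM in shBTLA against 0.790, 0.842 and 1.21 RPM in shControl, a log2 difference of 2.19. In both genes all shBTLA libraries were higher, as for 9.14% of all genes tested. In the sort CYP2S1 had 67.2, 76.3 and 66.0 RPM in BTLAlow against 41.2, 41.9 and 49.4 RPM in BTLAhigh, a log2 difference of 0.66. DSCAML1 had 6.67, 7.59 and 5.57 RPM in BTLAlow against 3.54, 4.66 and 5.50 RPM in BTLAhigh, a log2 difference of 0.54. Both genes were higher in all BTLAlow libraries, as for 30.4% of all genes tested, where TMCO1 overlapped between the groups. The difference between TMCO1 and these genes was not tested.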

How the data were processed

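RNA-Seq of A549 cells gave 12 libraries, grouped by their labels. The authors used Trim Galore 0.6.6 for trimming, STAR for alignment to GRCh38 with Ensembl genes and featureCounts for counting, and deposited RPKM per library. The tables the authors deposited for their edgeR comparisons hold a log2 fold change, mean log2 CPM, likelihood ratio statistic, p-value and FDR. The mean log2 CPM was used only to check that values and gene IDs belong together (100% of 13331 genes in the knockdown and of 13625 in the sort over 1 RPM within 0.25), the annotation columns gave positions, and the rest was not used. How strand and reads with several matches were handled is not given in the sources.

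The deposited RPKM carry the length of another gene, the one at the same place in the sorted ID list, so they were turned back into whole reads. Lengths came by position for 58797 of 60617 IDs and by search for 1056, and 764 were 0 throughout. Within 0.02 of a read, 100% of values were whole, which the search itself required for the 1056 IDs. Reads were divided by library totals to give RPM, which replaces RPKM in comparisons. Library depth was 29130357 to 42488067 reads. A count of 0 allows 3 reads, counting error only.

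The comparisons were fitted separately in limma 3.58.1 under R 4.3.3, by lmFit and eBayes with a trend. The values were log2(RPM + 0.1) of the genes that reached 10 reads in 3 or more of 6 libraries (16630 in the knockdown and 16911 in the sort), with Benjamini-Hochberg adjustment over all of them and a threshold of 0.05. Fold changes are on this scale and understate those of low genes. The fit was tested on simulated data. Python 3.11.15, numpy 2.4.6, pandas 2.3.3 and scipy 1.17.1 were used otherwise. Alternatives were a pseudocount of 1, no filter, a filter of 30 reads, scaling to the same median, voom on the reads, the deposited RPKM with a minimum of 0.5, a replicate block and leaving out each library. Genes named are the 5 members, genes tested within 1 Mb, genes that overlap a member where a result turns on them, the 5 nearest profiles, list members called and the subunits of the translocon, with LINC01133, RXRA and RXRB named after their values were seen. One gene that this rule names is counted but not reported here. The members and lists were chosen with earlier results of these data known.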

Additional observations from a re-analysis of the deposited data

How the results depend on the processing

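The TMCO1 difference in the knockdown lay between 2.03 and 2.21 (log2) without 1 library and between 2.03 and 2.15 in the other alternatives. In the sort it was -0.0095 to 0.058 without 1 library, -0.0095 being without BTLAlow 2, and -0.15 with libraries scaled to the same median. ALDH9A1 in the knockdown was -0.31 to 0.090 without 1 library, 0.090 being without shControl 1, and it had no value on the deposited RPKM, where it did not pass the filter. Of the genes within 1 Mb, 0 were called in the knockdown in each of the 13 alternatives. In the sort 1 was higher when scaled to the same median, on the deposited RPKM or with the replicate block, and 1 to 3 without 1 library, and 1 was lower when scaled to the same median. Replicate numbers were not shown to pair the samples, since deviations of same-numbered libraries correlated by 0.22, 0.41 and -0.04 in the knockdown and by 0.07, -0.37 and -0.16 in the sort.

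Counts over all genes moved more. In the knockdown 130 were higher and 114 lower, against 70 and 45 on the deposited RPKM and 260 and 285 with the replicate block. Without 1 library the higher calls ranged from 22 to 291 and the lower calls from 3 to 263, the highest counts being without shControl 1 and shControl 2. In the sort 3238 were higher and 1057 lower, against 2054 and 2238 scaled to the same median, 1889 and 639 on the deposited RPKM and 1726 and 461 with the replicate block. Without 1 library they ranged from 1578 to 4603 and from 418 to 1382. The cause was not tested. Depth limits FAM78B, TMCO1-AS1 and the genes at 0.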
